A study of Arabidopsis thaliana with 32 samples.

Results

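After 30 min of heat shock, the authors' list of sites with more elongating RNA polymerase II in wild-type Arabidopsis seedlings than in the tfiis-1 mutant held 936 pairs of a summit and the gene around it, and 342 of those pairs lay before the last 10% of the gene. The members described here were chosen by their relative position, which runs from 0 at the annotated start of the gene to 1 at its annotated end, and every pair under 0.9 was kept. They comprised 334 different summits in 304 genes, all protein-coding. The other 594 pairs, in 590 genes, had their summit in the last 10% of the gene and serve as the comparison; 27 genes held both kinds. Over the whole series, 8 lists hold 29921 pairs.

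RNA polymerase II (RNAPII) that has left the promoter and is elongating carries phosphate on Ser2 of the repeats of its C-terminal domain (S2P), and an antibody to this form maps where along genes the transcribing enzyme stands. The signal usually builds up towards the end of a gene and just past the polyadenylation site, where transcription slows before the polymerase is released. TFIIS helps a polymerase that has slid backwards to cut its own transcript and resume, so it acts inside the transcribed gene.

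Chromatin of whole in vitro grown seedlings, taken 14 days after stratification, was immunoprecipitated with an antibody to S2P RNAPII and sequenced. The mutant tfiis-1, which carries a mutation in TFIIS, was set against Col-0, the wild type, and each was sampled before heat shock (0 min) and 10 min, 30 min or 3 h into it. Each genotype and time had 3 ChIP libraries, which the submitters call biological triplicates, and 1 input library. The 30 min lists rest on 3 tfiis-1 and 3 Col-0 ChIP libraries after 30 min at heat. The labels give neither the temperature nor how many plants went into a library, and tfiis-1 is 1 mutant allele, studied in whole seedlings with no cell type resolved. A list called Col-0-higher holds the single base pairs (summits) where Col-0 was called above tfiis-1, and a list called tfiis-1-higher holds the reverse; both directions exist at all 4 times. Because a list holds calls and no library values, depth and replicate spread cannot be read from it, and neither a summit nor a difference between groups of summits carries a test here. The intervals beside shares are exact 95% binomial intervals (Clopper-Pearson) and cover counting error only, because summits and genes are not replicates.

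The summits before the last 10% were not spread evenly along their genes. There were 46 in the first 10%, between 16 and 42 in each of the next 7 steps of 10%, and 110 between 0.8 and 0.9. The median position was 0.65, with quartiles at 0.29 and 0.84. In distance, the members lay a median of 727 bp before the annotated end of their gene and 1111 bp after its start, while the pairs in the last 10% lay a median of 69 bp before the end. The position chose the members, so these values only describe them. Just inside the boundary were AT1G18470, at 0.8998 with a score of 14.4, and AT3G15040, at 0.8991 with a score of 2.94; just outside were SPP1, at 0.9003 with a score of 2.07, and AT4G17670, at 0.9013 with a score of 5.72.

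The authors give each summit of this list a score whose scale is not stated in the sources used here, and it serves only to rank summits within the list. The scores of the members had a median of 5.68, against 7.62 for the pairs in the last 10%, and the ranges overlapped almost completely (2.01 to 32.0 for the members and 2.01 to 37.6 for the last 10%). Within the members the median score was highest, 7.95, in the first 10% of the gene. It lay between 4.08 and 5.48 in the 10% steps from 0.1 to 0.8 and reached 5.95 from 0.8 to 0.9. The medians were thus higher at both ends of the genes than in between, though single summits in between scored as high as 25.5.

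**Figure D1:**
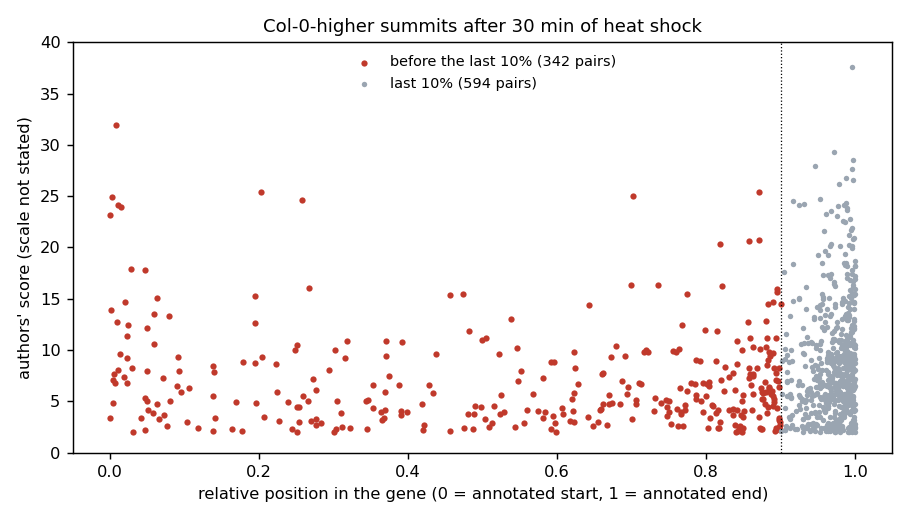
Relative position of each summit in its gene (x axis, 0 is the annotated start and 1 the annotated end) against the authors' score (y axis, scale not stated), 1 point per pair of summit and gene. Red points are the 342 pairs before the dotted line at 0.9, grey points the 594 pairs in the last 10%; red points gather at the far left, where 46 pairs have a median score of 7.95, and again next to the line.

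The 46 summits in the first 10% of a gene mostly stood behind another gene. The nearest annotated edge of a different gene was within 500 bp for 38 of the 46 (82.6%, interval 68.6 to 92.2), against 80 of the 296 members farther along their gene (27.03%) and 323 of the 594 pairs in the last 10% (54.4%). Position itself acts on these shares, because a summit near the start of its gene is also nearer to the gene before it. The share for all gene starts was not computed, and summits of other lists in the same 10% are given below. The gene table gives no strand, so whether an edge is a start or an end is known only for neighbours that appear in one of the 8 lists. Of the 38, that edge was the end of the neighbour in 32 and a start in 0, and the strand was unknown for 6. In 30 of the 32 the neighbour lay on the same strand, directly upstream: the summit was 9 to 334 bp past its annotated end in 27, with a median of 95 bp, and still inside it in the other 3. A summit past the end of a gene enters the lists only where it falls inside another gene, so these are the cases in which genes follow closely on 1 strand.

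The member with the highest score of all was of this kind. Its summit, at position 13600496 of chromosome 2 (TAIR10), lay 65 bp into RAD50 (AT2G31970, plus strand, 13600431 to 13609104), a DNA double-strand break repair gene, and 66 bp past the end of GSL03 (AT2G31960), a gene of the callose synthase family; its score was 32.0. DIM1A (AT2G47420), an rRNA dimethylase gene, held a summit 4 bp after its start and 75 bp past the end of AT2G47410, with a score of 24.96. The summit in the heat shock transcription factor gene HSFA3 (AT5G03720), 33 bp after the start, lay 67 bp past the end of CTR1, the Raf-like kinase that represses ethylene signalling, and had a score of 24.2. In NCS1 (AT5G03555), a nucleobase transporter gene, the summit lay 32 bp after the start and 49 bp past the end of AT5G03560, with a score of 23.9. These 4 summits, all within 100 bp past the end of the gene upstream, were among the 10 members with the highest scores.

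Other pairs of this kind had well-known genes upstream. The summit in AT3G20620 lay 150 bp past the end of the deubiquitinase gene UBP14 (score 17.9), the one in AT4G26701 lay 36 bp past that of the fimbrin gene FIM1 (score 11.4), and the one in AT1G49245 lay 85 bp past that of the actin gene ACT8 (score 6.53). In the cyclophilin gene ROC1 (AT4G38740) the summit stood 73 bp after the start and 95 bp past the end of AT4G38760 (score 13.5). The same placement therefore occurred at scores across the range of the list.

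**Figure D2:**
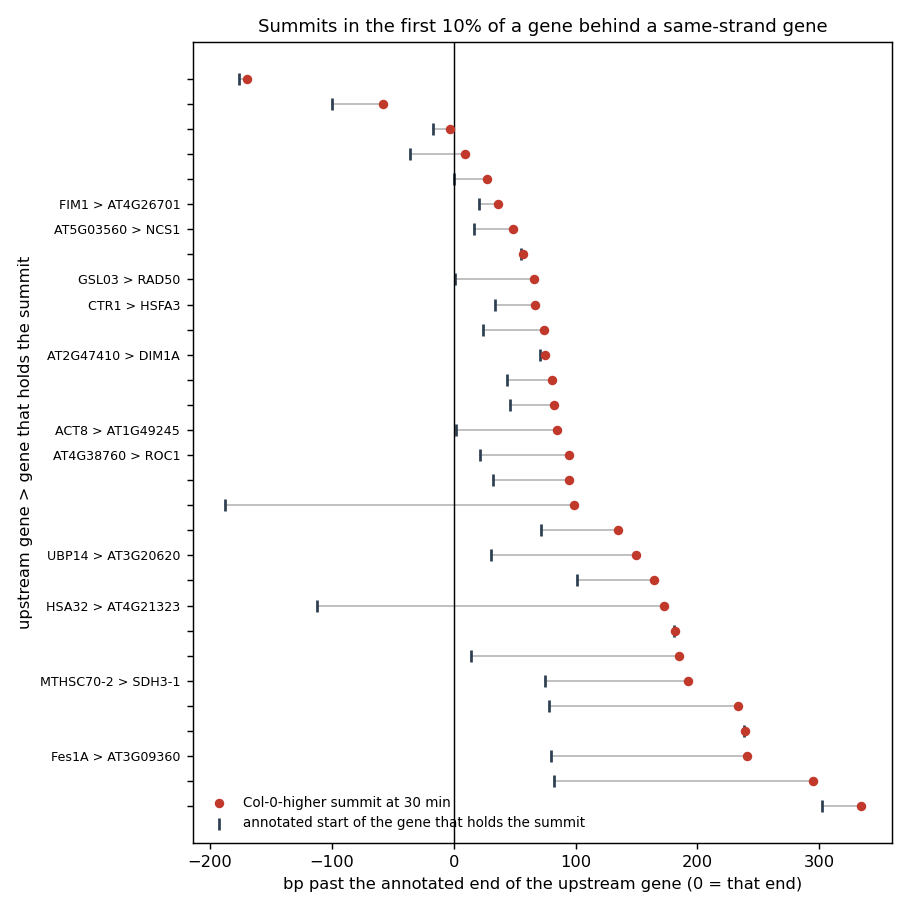
Position of the 30 summits in the first 10% of a gene whose nearest neighbour ends upstream on the same strand, in bp past the annotated end of that neighbour (x axis, 0 is that end); each row is 1 summit, and rows whose genes the text describes name the upstream gene, then the gene that holds the summit. Red points are summits and dark ticks the annotated start of the holding gene; 27 of the 30 points lie to the right of 0, by 9 to 334 bp.

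For these 38 summits, the neighbours were in the tfiis-1-higher lists of 3 h and 30 min more often than the host genes. The neighbours were tfiis-1-higher at 3 h in 29 of 38 (76.3%, interval 59.8 to 88.6), against 13 of the 38 host genes (34.2%, 19.6 to 51.4) and 23.7% of all 27444 nuclear protein-coding genes. In the 30 min list of the same libraries that chose the summits, 22 of the neighbours (57.9%) and 6 of the host genes (15.8%) were tfiis-1-higher, beside 16.6% of all coding genes. The neighbours were longer, with a median of 3549 bp against 2336 bp for the hosts, and the part of length in these shares was not tested.

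The nearest edge of another gene was also counted for other lists, and those of other times come from libraries the choice did not use. In the Col-0-higher list of 3 h, 123 of 129 pairs in the first 10% of a gene (95.3%) were within 500 bp of another gene's edge, an end in 111, a start in 0 and unknown in 12. The tfiis-1-higher list of 10 min had 133 of 167 such pairs near an edge (79.6%), an end in 104 and a start in 3. In the tfiis-1-higher list of 3 h, by contrast, 427 of 1429 pairs in the first 10% (29.9%) were near another gene's edge, an end in 57 and a start in 96, with 274 unknown. At 30 min the tfiis-1-higher list had 34 of 229 (14.8%), an end in 3 and a start in 7. Early Col-0-higher summits at 30 min and 3 h, and tfiis-1-higher ones at 10 min, thus stood behind upstream genes, whereas the early tfiis-1-higher summits of 30 min and 3 h mostly did not.

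The remaining 296 members lay between 0.1 and 0.9 of their gene, 85 of them up to 0.5 and 211 beyond. Because position is relative to length, 68 of the 296 were still within 300 bp of the end of their own gene; these genes were short, with a median of 1313 bp, and the summits had a median score of 5.54. A further 45 were within 500 bp of an edge of another gene. Among all 80 of the 296 that were near another gene, the edge was an end in 51 and a start in 9, with 20 unknown, and 45 of the 51 ends belonged to a gene on the opposite strand, so that the 2 genes pointed at each other. That left 183 pairs in 155 genes over 300 bp from their own end and over 500 bp from any edge of another gene; 4 of them lay inside a second gene. They had a median position of 0.59, a median score of 5.02 and genes with a median length of 2373 bp.

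Member genes were shorter than genes with a summit in the last 10%, with medians of 2114 bp (304 genes) and 3222 bp (590 genes). The rule itself acts on this difference, because a summit at a given distance before the end is a member more readily in a short gene. With summits at least 300 bp before the gene end, the median over pairs was 2658 bp, against 2257 bp under the rule. The median of all nuclear protein-coding genes was 2078 bp. Long genes can hold several summits: 273 of the 304 held 1 member, 28 held 2, and 3 held 3 or more. Those 3 were TOR with 7, and AT3G03270 and BCS1 with 3 each.

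TOR (AT1G50030, chromosome 1, minus strand, 18522248 to 18539995), the large kinase gene that couples nutrients to growth, is 17748 bp long and held 7 members at 0.40, 0.50, 0.63, 0.66, 0.69, 0.79 and 0.81 of its length. The scores of these summits were, in the same order, 3.97, 11.2, 6.65, 4.20, 5.75, 5.24 and 4.62. Further Col-0-higher summits of 30 min stood in its last 10%, at 0.93 and at its very end. The tfiis-1-higher summits of TOR all lay upstream of these, at 0.04, 0.08 and 0.15 at 30 min and at 0.08, 0.22 and 0.26 at 3 h. At 3 h its Col-0-higher summits stood at 0.58, at 0.84 and at its end. Along this gene the tfiis-1-higher signal was thus called in the first part and the Col-0-higher signal in the rest, in both the 30 min and the 3 h libraries.

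GTB1 (AT1G65440), the SPT6-like transcript elongation factor gene of 8095 bp, had members at 0.75 (score 4.42) and 0.88 (score 4.72), and its tfiis-1-higher summits of 3 h were at 0.12, 0.24 and 0.42. CNX1 (AT5G61790), which encodes the endoplasmic reticulum chaperone calnexin, had members at 0.34 (score 5.02) and 0.67 (score 5.61). In the 3 h lists CNX1 carried 1 tfiis-1-higher summit, at 0.09, while its Col-0-higher summits were at 0.30 and 0.99. At 10 min, however, CNX1 had a tfiis-1-higher summit at 0.97, downstream of both members. GTB1 thus had the order seen in TOR only between times, with tfiis-1-higher calls of 3 h upstream of Col-0-higher calls of 30 min. CNX1 had that order within the 3 h lists. At 10 min CNX1 had no Col-0-higher summit, so its tfiis-1-higher summit of 10 min is set against members of 30 min.

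Whether member genes were found at other times was read against all nuclear protein-coding genes. By construction every member gene was in the Col-0-higher list of 30 min, which holds 3.16% of coding genes. At 3 h, 188 of the 304 (61.8%, interval 56.1 to 67.3) were Col-0-higher, close to 379 of the 590 genes with a summit in the last 10% (gene-end genes; 64.2%, 60.2 to 68.1) and above the 10.8% of all coding genes. At 10 min 8 member genes (2.63%) were Col-0-higher, against 6 of the gene-end genes (1.02%) and 0.251% of all coding genes. At 0 min 2 were (0.658%), against 1 of the gene-end genes (0.169%) and 0.113% of all coding genes. The lists differ in size, with 31 coding genes at 0 min, 69 at 10 min and 2957 at 3 h, so the overlaps cannot be ranked between times. At 10 min and 3 h the share of member genes was above that of all coding genes, and at 3 h it was close to that of gene-end genes. All coding genes include genes called in no list, whereas every member gene had a call at 30 min. The part of this in the shares was not tested.

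The 2 kinds of gene differed in the tfiis-1-higher lists. Of the member genes, 27 (8.88%) were tfiis-1-higher at 0 min, against 123 of the gene-end genes (20.8%) and 4.90% of all coding genes. At 10 min there were 99 (32.6%, interval 27.3 to 38.1) against 266 (45.1%, 41.0 to 49.2), with 10.9% of all coding genes. At 3 h there were 101 (33.2%, 28.0 to 38.8) against 420 (71.2%, 67.3 to 74.8), with the 23.7% given above. At 30 min, in the libraries that chose both kinds, there were 58 (19.1%, 14.8 to 24.0) against 350 (59.3%, 55.2 to 63.3). The share of member genes called in the opposite direction was thus below that of gene-end genes in each of these lists. The intervals did not overlap, but they cover counting error only. Some genes were of both kinds, the kinds differed in length, and the 30 min shares come from the contrast that chose them. At 30 min the share of member genes stood near the 16.6% of all coding genes. It was 11.7% for summits before 0.8 and 26.5% for summits at least 300 bp before the gene end.

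Since member genes were shorter, the shares were also taken among genes of 2000 to under 4000 bp, a class chosen after the lists were seen. There 45.8% of 120 member genes (interval 36.7 to 55.2) were tfiis-1-higher at 3 h, against 71.2% of 271 gene-end genes (65.4 to 76.5) and 31.8% of 11194 coding genes. At 30 min the shares were 23.3% of member genes (16.1 to 31.9), 57.2% of gene-end genes (51.1 to 63.2) and 22.5% of coding genes. At 10 min the intervals overlapped, with 44.2% of member genes (35.1 to 53.5), 50.6% of gene-end genes (44.4 to 56.7) and 15.0% of coding genes. They also overlapped at 0 min, with 13.3% of member genes (7.82 to 20.7), 19.9% of gene-end genes (15.3 to 25.2) and 6.26% of coding genes. Within this length class the Col-0-higher list of 3 h held 66.7% of member genes, 62.0% of gene-end genes and 12.7% of coding genes.

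**Figure D3:**
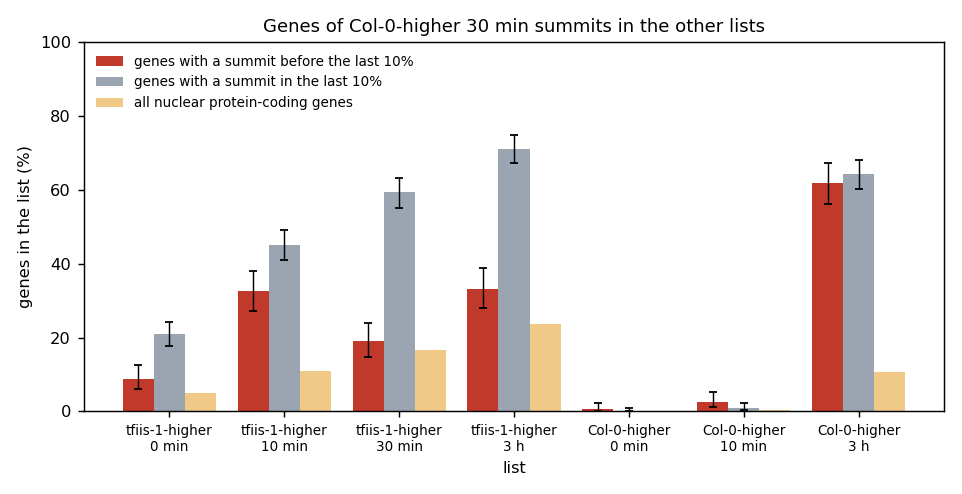
Percent of genes found in each of 7 other lists (y axis) for the 304 genes with a summit before the last 10% (red), the 590 genes with a summit in the last 10% (grey) and all 27444 nuclear protein-coding genes (yellow); bars start at 0 and error bars are exact 95% intervals for counting error. Red and grey bars are alike in the Col-0-higher list of 3 h (61.8% and 64.2%), and the red bar is below the grey one in each tfiis-1-higher list.

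Tfiis-1-higher summits of 0 min and 3 h mostly lay upstream of the 30 min members in the same gene, while those of 10 min did not. This sets calls of different times against each other. Of the 101 member genes that were also tfiis-1-higher at 3 h, all tfiis-1-higher summits lay upstream of every member in 71 and downstream of every member in 20, and the nearest one in the same gene was a median of 750 bp upstream (quartiles 1659 and 246 bp upstream, 116 pairs). Of the 27 genes that were tfiis-1-higher at 0 min, the split was 22 upstream and 3 downstream. At 10 min it was 41 upstream and 42 downstream of 99 genes, and the nearest tfiis-1-higher summit was a median of 10 bp downstream (quartiles 274 bp upstream and 222 bp downstream, 107 pairs). At 30 min, the contrast that chose the members, it was 50 upstream and 8 downstream of 58. A member at 0.65 has more gene before it than after it, and the part of this in the split was not tested.

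At the level of the site, 167 of the 342 members (48.8%, interval 43.4 to 54.3) had a Col-0-higher summit of 3 h within 300 bp, against 373 of the 594 pairs in the last 10% (62.8%, 58.8 to 66.7). Where a member gene was in that list, its nearest summit stood a median of 16 bp downstream of the member (quartiles 21 bp upstream and 102 bp downstream, 210 pairs). The share varied with position: it was 56.5% of the 46 members in the first 10% (41.1 to 71.1), 27.1% of the 85 from 0.1 to 0.5 (17.99 to 37.8), and 55.9% of the 211 from 0.5 to 0.9 (48.9 to 62.7). Of the 183 members away from their own end and from other genes' edges it was 37.7%. The share was thus lowest from 0.1 to 0.5 of the gene.

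Some interior sites were called at almost the same base at both times. AT5G21970 had its member at 0.27 (score 16.0) and a Col-0-higher summit of 3 h 1 bp away. In AT5G25520, at 0.70 of a gene of 4817 bp (chromosome 5, plus strand, 8885088 to 8889904), the member with a score of 24.99 had a 3 h summit 2 bp away. AT4G13540, with a member at 0.20 and a score of 25.5, had one 8 bp away. The glutathione peroxidase gene GPX5 (AT3G63080) had its member at 0.19 (score 15.3) and a 3 h summit 9 bp away. AT3G03270 had 3 members of low score, at 0.28 (2.65), 0.51 (2.52) and 0.66 (2.98), and the first and last of them had 3 h summits 3 and 2 bp away. The second summit of HSFA3, in the middle of the gene at 0.46 (score 15.4), had a 3 h summit 71 bp away, and this gene had no tfiis-1-higher summit at any time. These sites had scores from 2.65 to 25.5.

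Several members, some with high scores, were in genes with no Col-0-higher summit at another time. RGF5 (AT5G51451), a gene of 668 bp for a root meristem growth factor peptide, had its summit at 0.87 with a score of 25.4 and was in no other list. AT1G19530 had one at 0.26 with a score of 24.7, likewise in no other list. GDPD3 (AT5G43300), a glycerophosphodiester phosphodiesterase gene, had 2 members, at 0.47 (score 15.5) and 0.82 (score 16.2), and was in no other list. BCS1 (AT3G50930), a mitochondrial AAA-ATPase gene, was also in no other list, with lower-scoring members at 0.42 (score 4.74), 0.62 (score 5.19) and 0.88 (score 3.84). AT5G51630, with members at 0.76 (score 9.81) and 0.87 (score 20.7), had 4 tfiis-1-higher summits at 3 h, at 0.07, 0.30, 0.40 and 0.46, and no Col-0-higher one. A missing call does not show that the genotypes were alike at that time.

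At 10 min the sites of some members were called in the other direction. A tfiis-1-higher summit of 10 min stood within 300 bp of 68 of the 342 members (19.9%, interval 15.8 to 24.5), against 145 of the 594 pairs in the last 10% (24.4%, 21.0 to 28.1). A Col-0-higher summit of 10 min did so for 5 members (1.46%) and 2 pairs in the last 10% (0.337%). Tfiis-1-higher summits were near few members in the other lists. At 0 min there were 3 (0.877%), against 5 of the pairs in the last 10% (0.842%). At 3 h there were 11 (3.22%) against 30 (5.05%). At 30 min, the contrast that chose both kinds, there was 1 (0.292%) against 14 (2.36%). The lists differ in size, so these shares cannot be ranked between times. The 10 min share was 25.6% from 0.5 to 0.9 of the gene (19.8 to 32.0) and 7.06% from 0.1 to 0.5 (2.63 to 14.7). Within 100 bp the share was 7.89% (27 of 342), so how many members had been called towards tfiis-1 at 10 min at their own site depends on the distance allowed.

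Among these, AT5G25520 had a tfiis-1-higher summit of 10 min 26 bp from its member, beside the Col-0-higher summit of 3 h. RCD1 (AT1G32230), a regulator of responses to oxidative and other stress, had its member at 0.82 (score 20.3). It carried 5 tfiis-1-higher summits at 10 min, at 0.16, 0.24, 0.49, 0.64 and 0.83, the last of them 45 bp from the member, and a Col-0-higher summit of 3 h 65 bp away. ARR4 (AT1G10470), a type-A response regulator of cytokinin signalling, had its member at 0.86 (score 20.6), a tfiis-1-higher summit 96 bp away at 10 min and a Col-0-higher summit 5 bp away at 3 h. Elsewhere in ARR4 tfiis-1-higher summits stood at 0.49 at 0 min, 0.50 at 30 min and 0.56 at 3 h. KNAT4 (AT5G11060), a KNOX homeobox gene, had its member at 0.895 (score 15.7), a tfiis-1-higher summit of 10 min 294 bp away and a Col-0-higher summit of 3 h 26 bp away. In AT5G25520, RCD1 and ARR4, calls within 100 bp of the member were thus towards tfiis-1 at 10 min and towards Col-0 at 3 h. In KNAT4 the 10 min summit stood farther off, at 0.97. KNAT4 also had tfiis-1-higher summits of 30 min at 0.58, 0.68 and 0.81, the last 339 bp from the member.

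GPX5 had its tfiis-1-higher summit of 10 min 230 bp from the member. AT1G21560 had its member at 0.05 (score 17.8) and a tfiis-1-higher summit of 10 min 263 bp from it, and its Col-0-higher summit of 3 h stood at the other end, at 0.99. The xyloglucan-modifying touch gene TCH4 (AT5G57560) was the 1 member gene with a Col-0-higher summit of 0 min near its member, 229 bp away; its member at 0.85 had a score of 2.04 and a tfiis-1-higher summit of 10 min 15 bp away. Within 300 bp of its member TCH4 was thus called in each direction within the course.

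**Figure D4:**
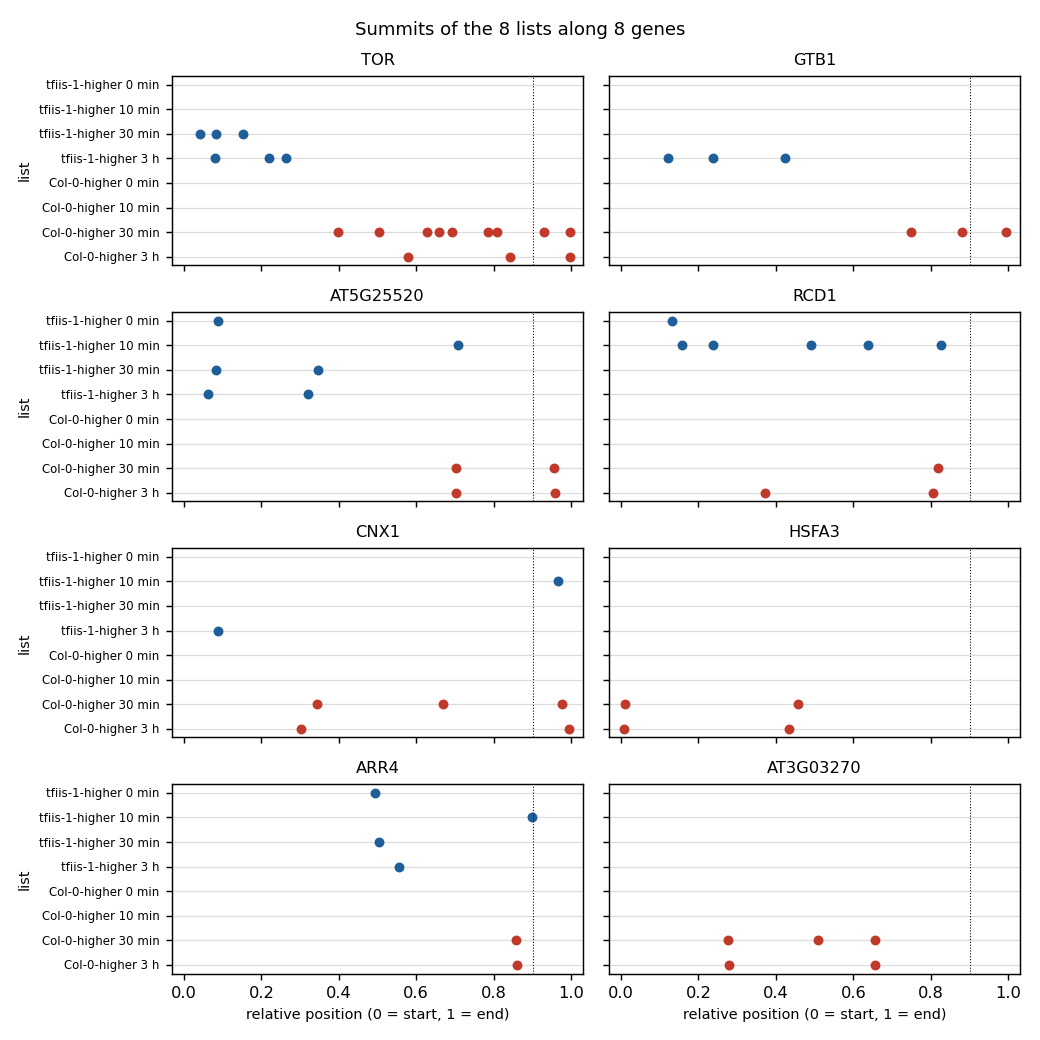
Relative position of every summit along 8 member genes (x axis, 0 is the annotated start and 1 the annotated end; the dotted line is 0.9), with 1 row per list; blue points are tfiis-1-higher and red points Col-0-higher summits. In TOR and GTB1 all blue points stand left of all red points, those of GTB1 being blue only at 3 h and red only at 30 min. In AT5G25520 and RCD1 a blue point of 10 min stands next to red points of 30 min and 3 h. RCD1 has 5 blue points at 10 min, and both genes have further red points elsewhere.

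Of 77 genes in 4 lists of chaperones, heat shock transcription factors, small heat shock proteins and co-chaperones or other heat-response genes, 3 held a member (3.90%), beside 1.11% of all coding genes. The rule for members used this contrast and the lists were chosen with results known, so nothing is read from these shares. By list these were 1 of 23 chaperone genes, 1 of 21 heat shock transcription factor genes, 0 of 17 small heat shock protein genes and 1 of 16 co-chaperone or other heat-response genes. The chaperone was the HSP70 gene AT3G09440, at 0.84 with a score of 2.44. The transcription factor was HSFA3, described above, and the third gene was DREB2B (AT3G11020), a drought and heat transcription factor gene, at 0.85 with a score of 5.07. The summits of AT3G09440 and DREB2B also lay inside a second, overlapping gene, so they cannot be assigned to 1 gene. AT3G09440 belongs to a family of closely similar genes, among which the authors' mapping could have split reads.

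A look at neighbouring genes, added after the lists were seen, found 9 members within 1000 bp of a gene of these 4 lists other than the gene they were assigned to, with scores between 2.01 and 5.07. In AT1G16022 the summit lay 132 bp past the end of the HSP70 gene Hsp70b (score 3.39). The one in SDH3-1 lay 192 bp past the end of MTHSC70-2, a mitochondrial HSP70 gene (score 4.16). The one in AT4G21323 lay 173 bp past the end of HSA32, a gene needed for lasting thermotolerance (score 2.58), and the one in AT3G09360 lay 241 bp past the end of Fes1A, a partner of HSP70 (score 2.01). Those in RABA2b and AT1G59865 lay 423 and 634 bp past the ends of the small heat shock protein genes AT1G07400 and AT1G59860. All 5 members with a Col-0-higher summit of 10 min within 300 bp were inside or next to such genes, namely those in AT1G16022 (261 bp), AT1G59865 (135 bp), AT4G21323 (92 bp) and the summit shared by AT3G09430 and AT3G09440 (102 bp), which counts as 2 pairs. At greater distances this did not hold throughout: of the 8 member genes in the Col-0-higher list of 10 min, AT2G17920 (score 16.0) and AT2G39725 (score 2.15) had that summit 391 and 415 bp from the member, and neither lay within 1000 bp of a gene of these 4 lists. That list of 69 coding genes itself held 7 of the chaperone, 1 of the heat shock transcription factor, 0 of the small heat shock protein and 2 of the co-chaperone or other heat-response genes. The share of all summits near such genes was not computed, so nothing is read from these counts.

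Of 21 genes of the unfolded protein response, CNX1 held members, while 7 genes of that list had a summit in the last 10%. Of 15 genes of RNAPII elongation, GTB1 did, and of 8 PI3K-like kinase and MRN repair complex genes, TOR and RAD50 did, RAD50 at its start behind GSL03. None of 20 SR splicing factor genes held a member, and 3 had a summit in the last 10%. In all, 7 of the 141 listed genes held a member (4.96%), beside the same 1.11% of coding genes.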

How the data were processed

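S2P RNAPII ChIP-seq was made from tfiis-1 and Col-0 seedlings. Per the submitters' processing notes, the build was TAIR10 and the tools included Bowtie2, FastQC, MACS3 and deepTools; the notes used here state no version and no role. The sources used here do not state how calls were thresholded, genotypes scaled, inputs used or libraries pooled, and each of these acts on the number of calls per direction. As deposited by the authors, the data are 8 lists of summit coordinates with the gene and strand; the score per summit is the authors' own value as deposited, on a scale that is not stated.

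Repeated lines were counted once, and a summit inside 2 genes (31 member pairs) counted for each. Gene intervals and symbols came from the RefSeq table of TAIR10.1, whose intervals equal those in the 30 min list. It has no strand, so strands came from the lists, and the nearest edge of any gene replaced the planned nearest end. No exon annotation was used here. Distances ignore strand unless stated. Background shares are of 27444 nuclear protein-coding genes.

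Members, gene lists and the rule for named genes were chosen with earlier results of these data known. The rule took the 10 highest scores, the 4 highest in each of 3 position classes, genes with 3 or more members, listed genes, members with a Col-0-higher summit of 0 or 10 min within 300 bp, the 6 highest scores with a tfiis-1-higher summit within 300 bp and the 2 pairs nearest to 0.9 on each side. 1 member that the rule takes is not reported here. Genes named as neighbours were chosen after their values were seen. The counting steps were tested on simulated data. Python 3.11.15, numpy 2.4.6, pandas 2.3.3, scipy 1.17.1 and matplotlib 3.10.9 were used.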

Additional observations from a re-analysis of the deposited data

How the results depend on the processing

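No paired analysis was possible because the lists hold no value per library, and for the same reason no replicate could be left out; depth, and the precision it gives, is unknown. Over 8 quantities, 67 alternatives were computed, 3 of them (genes of 2000 to under 4000 bp) chosen after the data were seen; 46 stayed inside the exact 95% interval or, for the number of members, within 1.5 times. With the highest-scoring 50% of summits there were 134 members, 20.9% of them in the first 10%, 59.7% with a Col-0-higher summit of 3 h within 300 bp, 48.5% within 500 bp of another gene's edge, and 25.4% of their genes tfiis-1-higher at 30 min. With 0.8 in place of 0.9 the median position was 0.42, 19.8% were in the first 10%, 39.2% had the 3 h summit and 13.8% a tfiis-1-higher summit of 10 min within 300 bp, and 11.7% of genes were tfiis-1-higher at 30 min. Keeping summits at least 300 bp before the gene end gave a median gene length of 2658 bp over pairs (2257 bp as reported) and 26.5% of genes tfiis-1-higher at 30 min, and genes of at least 1000 bp gave 2390 bp. A distance of 100 bp in place of 300 bp gave 36.5% for the 3 h and 7.89% for the 10 min summit, the same gene at any distance 61.4% and 31.3%, and genes of 2000 to under 4000 bp 24.8% for 10 min. Within another gene's edge were 29.3% for summits in 1 gene, 23.1% at 250 bp and 11.99% counting neighbours known to share the strand. The cause of these shifts was not tested beyond the change in members or distance that each setting makes.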

Other observations

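Genes known from touch, cold and other stress stood among the members outside the gene lists; they were chosen after their values were seen, and no set of them was tested. The calmodulin-like touch gene TCH2 (AT5G37770) had a member at 0.39 with a score of 4.08, and the xyloglucan-modifying genes XTR6 (AT4G25810) and XTH24 (AT4G30270) had members at 0.30 (score 10.03) and 0.89 (score 5.50). The cold-induced genes KIN1 (AT5G15960) and KIN2 (AT5G15970) held 1 member at 0.60 (score 8.85) and 2 members at 0.49 (score 2.31) and 0.82 (score 2.36); these neighbouring copies are similar in sequence, so reads could have been split between them. The galactinol synthase gene GolS2 (AT1G56600) had one at 0.71 (score 6.70) and the transcription factor gene DREB26 (AT1G21910) had 2, at 0.25 (score 4.42) and 0.80 (score 6.64), the first of them 1 bp from a Col-0-higher summit of 3 h. The stress-associated zinc finger genes PMZ (AT3G28210) and SAP10 (AT4G25380) had members at 0.35 (score 5.11) and 0.56 (score 2.92), and at 0.55 (score 7.01).

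Clock and photosynthesis genes also held members, and these too were chosen after their values were seen. GRP7 (AT2G21660), a circadian RNA-binding protein gene, held members at 0.39 (score 10.8) and 0.77 (score 2.63), and PCL1 (AT3G46640), the clock gene also called LUX, held one at 0.62 (score 9.79) with a Col-0-higher summit of 3 h 9 bp away. Among photosynthesis genes, CA1 (AT3G01500) had a member at 0.88 (score 9.01), PSBQ-2 (AT4G05180) at 0.79 (score 4.98), RBCS3B (AT5G38410) at 0.82 (score 2.45) and CP12-1 (AT2G47400) at 0.85 (score 3.51). A second type-A response regulator gene, ARR6 (AT5G62920), had its member at 0.86 (score 6.596), with a Col-0-higher summit of 3 h 37 bp away. RBCS3B belongs to a family of near-identical copies, for which reads could have been split.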
